A study of Mus musculus with 48 samples.

Results

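The genes described here encode integrins, laminins, collagens, thrombospondins and 5 single matrix or matrix-receptor proteins (Fn1, Tnc, Tnr, Cd44 and Vcan). They were chosen by gene symbol, with earlier results of these data known, and 90 of the 47643 gene identifiers in the count tables matched. They comprise 18 alpha integrins, 8 beta integrins, 11 laminin chains, 44 collagen chains, 4 thrombospondins and the 5 single genes. The cells were nociceptors, sensory neurons that detect damaging stimuli, and their RNA was read 3 days after the sciatic nerve had been crushed with forceps. Neurons were dissociated from the L4 dorsal root ganglion and sorted by ZsGreen, a fluorescent reporter.

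There were 4 groups of 4 samples. Crush cKO and crush control samples came from the ganglion on the crushed side, and uninjured cKO and uninjured control samples from the contralateral side. The cKO mice carried Tsc2 flox/null and the control mice Tsc2 flox/+. All groups share the Nav1.8-Cre and Rosa26-ZsGreen alleles, an age of 8 to 9 weeks and a mixed C57BL/6 and AJ background. Cre driven by Nav1.8, a sodium channel of nociceptors, deletes the floxed Tsc2 allele, so control neurons keep 1 working copy of Tsc2 and are not wild type. Tsc2 encodes tuberin, an inhibitor of the growth-promoting kinase complex mTORC1. A contralateral ganglion comes from an animal with a nerve lesion and is not that of an unoperated animal.

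Each sample is the sum of 3 technical aliquots of about 100 sorted cells. The 48 libraries held 5159353 to 34228180 gene counts and the 16 sums 36773198 to 63365268. Levels are CPM, counts per 1000000 counts of the library after TMM scaling. The sum of 14 nociceptor and sensory neuron markers was 18970 to 34220 CPM, against 1404 to 1947 CPM for 10 Schwann cell markers. The neuron sum was uneven in uninjured control samples, at 33020, 34220, 21860 and 22760 CPM. Tsc2 averaged 8.30 ± 2.42 CPM in crush cKO and 23.2 ± 3.76 CPM in crush control samples, and 8.86 ± 1.51 CPM in uninjured cKO and 21.0 ± 5.14 CPM in uninjured control samples (SD, n = 4 each). Its log2 change with deletion was −1.48 ± 0.23 (SE) after crush and −1.24 ± 0.23 without injury, with edgeR adjusted p of 0.00106 and 0.00101. By an exact two-sided permutation test both gave p = 0.0286, the smallest p that 4 against 4 samples allow.

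Integrins are receptors in the cell membrane made of an alpha and a beta chain. They bind matrix proteins outside the cell and connect through talin and other adaptors to actin inside it. Laminins, trimers of an alpha, a beta and a gamma chain, and type IV collagen form the basement membrane that ensheaths Schwann cells, along which peripheral axons regrow after injury. In growing sensory axons, integrins with the beta chain from Itgb1 are known as the main receptors for laminin and fibronectin.

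Of the 90 genes, 80 passed the filter on low counts, 56 had a mean of at least 1 CPM over the 16 samples, and 23 had a count in all 48 libraries. Changes were tested over all 19048 genes that passed the filter, with edgeR's quasi-likelihood test and a threshold of 0.05 on the adjusted p, and a gene past it is said here to have risen or fallen. With crush in control neurons, 13 of the 80 rose and 2 fell, or 18.75%, where 19.7% of all tested genes changed, 11.0% upwards and 8.68% downwards. With crush in cKO neurons, 3 of 80 rose and none fell, or 3.75%, against 5.43% of all tested genes, 2.57% upwards and 2.86% downwards. DESeq2 called 9 of the 59 that it gave an adjusted p, against 11.6% of all genes with one, and limma-voom 5 of 80, against 6.22% of all tested genes. An unadjusted edgeR p under 0.05 was found for 13 of 80, against 17.2% of all tested genes. With deletion in uninjured neurons, 14 rose and 5 fell, or 23.75%, against 20.7% of all tested genes, 11.7% upwards and 9.02% downwards. With deletion after crush, 6 rose and 2 fell, or 10.0%, against 6.59% of all tested genes, 3.38% upwards and 3.21% downwards. The crush effect differed between genotypes (the interaction) for 7, or 8.75%, against 1.76% of all tested genes. It was lower in cKO for 6 of them, or 7.5%, against 1.54% of all tested genes, and higher for 1, or 1.25%, against 0.220%.

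Over the 80 genes, log2 changes had a median of 0.22 with crush in control neurons, 0.31 with crush in cKO neurons, 0.32 with deletion in uninjured neurons and 0.56 with deletion after crush. Over all tested genes these medians lay between −0.03 and 0.02. The comparisons share groups: crush in control and deletion in uninjured neurons are both set against the uninjured control samples, so a chance low value there would raise both. The interaction uses these samples too, and such a value would make it more negative. The values below therefore stand side by side as measurements and not as independent results. The number of genes called with deletion after crush changed when single samples were left out. It was 8 with all samples, 5, 3 and 4 without crush control sample 1, 2 or 3, and 5 and 3 without crush cKO sample 3 or 4. Shares of all tested genes in these fits are not given here, so a dependence particular to these genes is not shown.

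**Figure D1:**
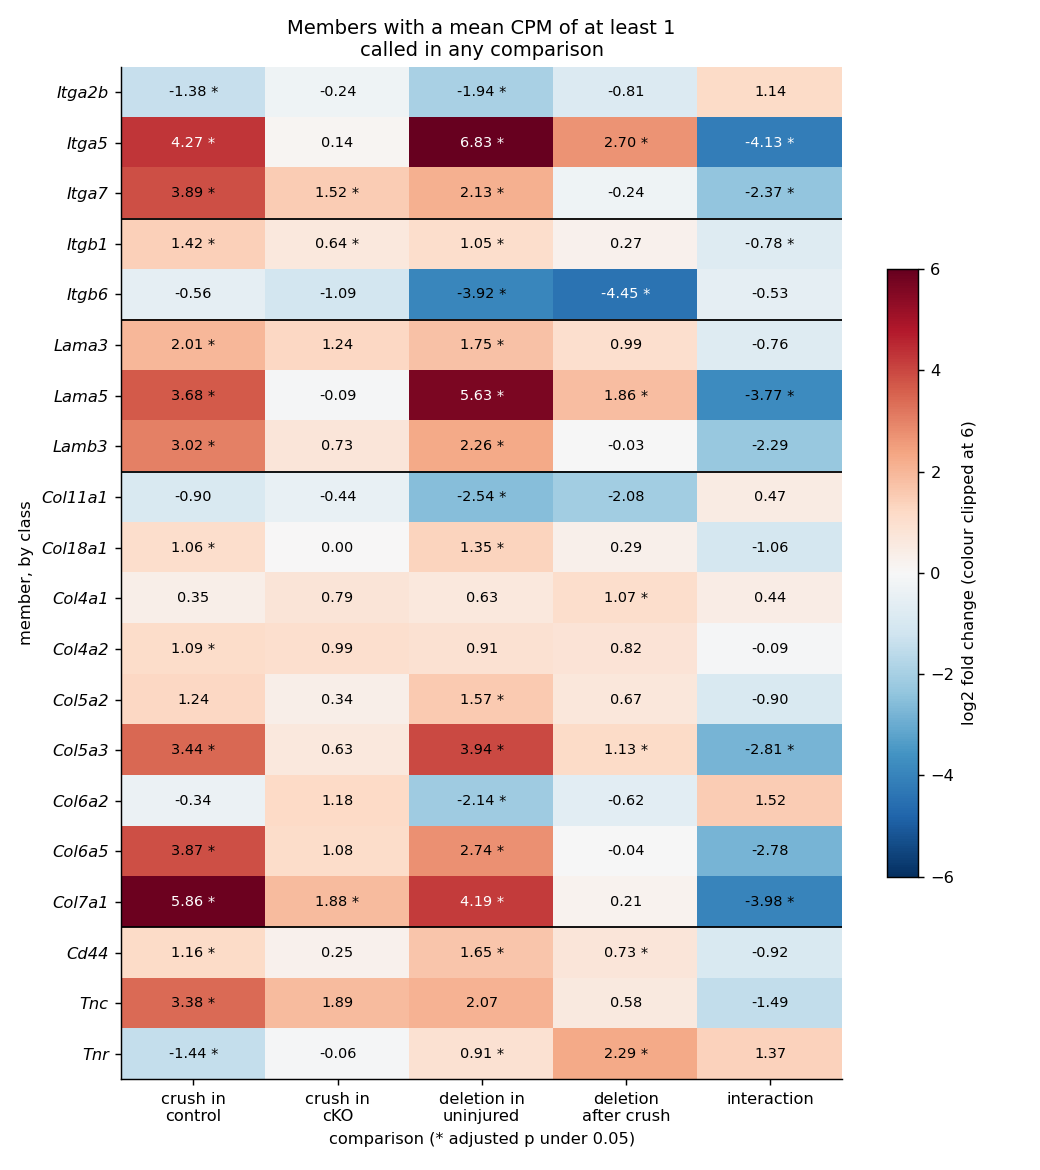
Log2 fold changes of the 20 integrin, laminin, collagen and single matrix genes with a mean of at least 1 CPM that were called in any of the 5 comparisons (columns), grouped by class (rows), with an asterisk where the edgeR adjusted p was under 0.05. Colours run from blue (lower with crush or deletion) to red (higher) and stop at a change of 6. In the interaction column the called values, such as −2.37 for Itga7 and −4.13 for Itga5, are all negative.

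Itga7, Itga5, Itgb1, Lama5, Col5a3 and Col7a1 were higher with crush in control neurons, higher with deletion in uninjured neurons, and had a negative interaction, meaning a smaller crush effect in cKO than in control neurons. Their promoters are shown because these genes passed the same 3 tests. All had their lowest level in uninjured control samples, but the order of the other 3 groups differed between them. That shared lowest group follows largely from the choice. All 3 tests use the uninjured control samples, and a low value there helps a gene to pass each. RefSeq promoter windows on GRCm38.p6 were at hand for 65 of the 90 genes, 5 of these 6 among them. The 250 bases before the annotated start of those 5 are printed 5′ to 3′ on the gene's own strand. Capitals mark GGGCGG, the GC box bound by Sp-family factors, or its reverse complement CCGCCC.
Itgb1, chr8:128685404-128685653, plus strand: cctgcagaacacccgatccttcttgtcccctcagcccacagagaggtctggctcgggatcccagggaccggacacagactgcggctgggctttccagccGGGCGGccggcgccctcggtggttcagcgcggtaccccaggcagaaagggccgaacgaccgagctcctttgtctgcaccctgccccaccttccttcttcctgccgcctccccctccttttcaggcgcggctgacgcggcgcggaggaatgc
Itga5, chr15:103366792-103367041, minus strand: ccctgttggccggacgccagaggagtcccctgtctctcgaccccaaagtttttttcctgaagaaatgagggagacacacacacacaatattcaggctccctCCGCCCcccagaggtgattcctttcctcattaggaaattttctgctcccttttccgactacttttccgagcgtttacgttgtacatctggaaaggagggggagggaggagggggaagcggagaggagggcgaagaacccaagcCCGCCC
Col5a3, chr9:20815068-20815317, minus strand: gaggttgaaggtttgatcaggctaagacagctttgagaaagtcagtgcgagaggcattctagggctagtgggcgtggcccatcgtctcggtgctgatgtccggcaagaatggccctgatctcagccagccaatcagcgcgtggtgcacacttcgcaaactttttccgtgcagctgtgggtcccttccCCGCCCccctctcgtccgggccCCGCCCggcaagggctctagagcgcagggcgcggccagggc
Col7a1, chr9:108953336-108953585, plus strand: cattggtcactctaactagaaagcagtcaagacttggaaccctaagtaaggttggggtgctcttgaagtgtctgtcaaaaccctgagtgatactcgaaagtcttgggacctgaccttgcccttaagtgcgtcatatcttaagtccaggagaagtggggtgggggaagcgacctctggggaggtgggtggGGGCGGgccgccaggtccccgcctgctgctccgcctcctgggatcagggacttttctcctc
Lama5, chr2:180225860-180226109, minus strand: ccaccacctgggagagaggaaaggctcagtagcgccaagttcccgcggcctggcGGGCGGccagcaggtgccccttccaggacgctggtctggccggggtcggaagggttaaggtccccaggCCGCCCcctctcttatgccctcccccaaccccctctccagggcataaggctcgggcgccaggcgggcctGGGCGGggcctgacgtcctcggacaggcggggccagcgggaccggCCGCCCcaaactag

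GGGCGG occurred on either strand in all 5 of these windows, in 36 of 72 windows of the 65 genes (50.0%) and in 32.7% of all 32851 windows of the same length. TGANTCA, the AP-1 element, TGACGTCA, the cyclic AMP response element, CACGTG, the E-box, and TGATGNAA, a form of the ATF4 element, were searched on both strands too. None of these occurred in the 5 windows. They were present in 6.75%, 1.55%, 6.02% and 3.45% of all windows. These are matches of letters in a short window and say nothing of binding. The GC box, the E-box and the ATF4 element were added to the search after the genes' values were known.

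Among alpha integrins the largest movement in level was that of Itga7, whose product pairs with the Itgb1 chain as a laminin receptor. Itga7 (ENSMUSG00000025348) lies on chromosome 10 of mm10 at 128933818 to 128958282, plus strand. It had 532, 559, 444 and 493 CPM in crush cKO samples and 745, 396, 579 and 668 CPM in crush control samples. It had 196, 184, 159 and 168 CPM in uninjured cKO samples, and 36.9, 46.2, 46.1 and 32.0 CPM in uninjured control samples. Every uninjured control sample was thus below every uninjured cKO sample, and these were below every crushed sample, while the crush groups overlapped. With crush the log2 change was 1.52 ± 0.17 in cKO neurons (adjusted p = 8.18e-05) and 3.89 ± 0.18 in control neurons (adjusted p = 8.32e-10). With deletion it was 2.13 ± 0.17 in uninjured neurons (adjusted p = 4.33e-07) and −0.24 ± 0.16 after crush (adjusted p = 0.475). The interaction was −2.37 ± 0.24 (adjusted p = 2.13e-05), so the crush effect was smaller in cKO neurons by more than the spread between samples.

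Itga5 encodes the alpha chain that, with Itgb1, forms the classical fibronectin receptor. It (ENSMUSG00000000555) lies on the minus strand of chromosome 15, 103344286 to 103366763, and its promoter is printed above. It had 14.1, 24.9, 24.6 and 20.9 CPM in crush cKO samples and 3.57, 2.63, 2.47 and 4.36 CPM in crush control samples. It had 16.5, 17.4, 22.2 and 20.7 CPM in uninjured cKO samples, against 0.0172, 0.0382, 0.0904 and 0.542 CPM in uninjured control samples. Both cKO groups lay above both control groups with no overlap, and within control neurons the crushed samples lay above the uninjured ones. The uninjured control level rests on 35 counts over the group, against 4371 counts in uninjured cKO samples. Deletion raised Itga5 by 6.83 ± 0.63 on the log2 scale in uninjured neurons (adjusted p = 1.87e-06) and by 2.70 ± 0.49 after crush (adjusted p = 0.00368). Crush changed it by 0.14 ± 0.46 in cKO neurons (adjusted p = 0.943) and by 4.27 ± 0.59 in control neurons (adjusted p = 9.6e-05). The interaction was −4.13 ± 0.74 (adjusted p = 0.00622).

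Itga7 was the most abundant alpha integrin transcript per kilobase in all groups but uninjured control, where it and Itga3 lay close together. Per kilobase of exon, Itga7 made up 79.95% ± 1.83 of the summed alpha integrin level in crush cKO samples and 84.3% ± 3.61 in crush control samples. Its share was 58.2% ± 1.56 in uninjured cKO and 30.1% ± 5.57 in uninjured control samples (SD, n = 4 each). Itga3, a laminin receptor chain, took 9.31% ± 2.39, 9.71% ± 1.75, 20.3% ± 1.53 and 36.7% ± 5.80 in the same groups. In uninjured control samples Itga3 had the higher share in samples 1, 3 and 4 and Itga7 in sample 2. In CPM Itga3 averaged 42.0 ± 12.95, 47.0 ± 6.39, 43.6 ± 5.72 and 35.3 ± 9.83 in these groups, and passed no test, below Itga7 in the mean of each group. Itga5 was 5.52% ± 1.497 of the alpha integrin level in crush cKO, 0.766% ± 0.155 in crush control, 10.5% ± 2.16 in uninjured cKO and 0.203% ± 0.294 in uninjured control samples. Itgav, the chain of several receptors for arginine-glycine-aspartate motifs, averaged 18.8 ± 3.27, 13.4 ± 5.90, 16.9 ± 6.47 and 10.3 ± 1.99 CPM and passed no test.

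**Figure D2:**
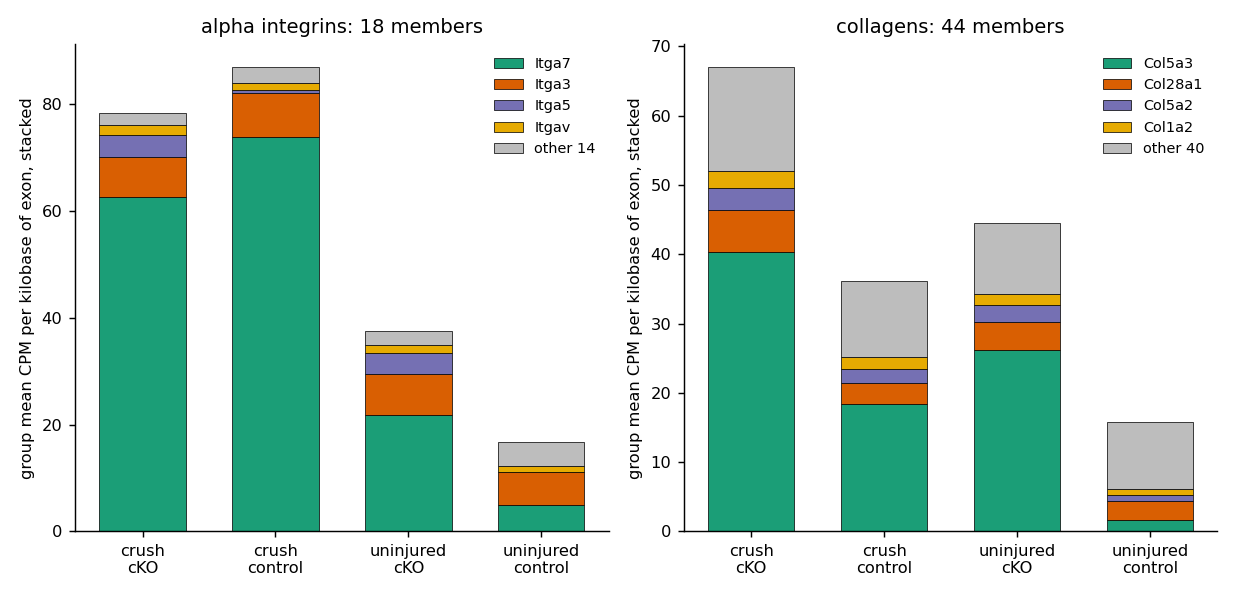
Group mean levels in CPM per kilobase of exon, stacked over the 18 alpha integrins (left) and the 44 collagens (right), with the 4 members of highest level in each class in colour and the others in grey; the number of samples is 4 per bar. Itga7 accounts for 62.6, 73.8, 21.9 and 4.98 CPM per kilobase in crush cKO, crush control, uninjured cKO and uninjured control samples, and Col5a3 for 40.3, 18.4, 26.1 and 1.70.

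Itga2b, the alpha chain of the platelet fibrinogen receptor, moved the other way. It had 1.27, 1.53, 1.23 and 0.968 CPM in crush cKO samples and 1.13, 1.96, 4.14 and 1.54 CPM in crush control samples. It had 1.13, 1.86, 1.09 and 1.84 CPM in uninjured cKO samples and 5.53, 4.50, 7.16 and 5.62 CPM in uninjured control samples, the highest of the 4 groups. It fell by 1.38 ± 0.38 on the log2 scale with crush in control neurons (adjusted p = 0.0181) and by 1.94 ± 0.39 with deletion in uninjured neurons (adjusted p = 0.00206). The fall with crush did not pass without uninjured control sample 3 or crush control sample 1 or 4, where it was −1.22 to −1.16. Itga8, whose product with the Itgb1 chain binds nephronectin, was near the limit of detection, with 34, 2, 0 and 56 counts over the crush cKO, crush control, uninjured cKO and uninjured control groups. Itga8 fell with deletion in uninjured neurons (edgeR adjusted p = 0.0155). Against a floor set at 3 counts over the uninjured cKO group, the level in uninjured control samples was 19.5-fold higher. Without molecular identifiers the counts include amplification copies, so this is not a firm lower bound. Itga8 had a count in 10 of the 48 libraries, and 55.25% of its summed level lay in 3 of them. Its interaction was called upwards (adjusted p = 0.0312), but a fitted fold change of a gene at 0 is not a bound, and the call did not pass without any of the 4 uninjured cKO or 4 crush control samples, or without uninjured control sample 1 or 2 or crush cKO sample 1 or 4 (log2 values of 9.76 to 13.04). Of the 17 alpha integrins tested, 2 rose and 1 fell with crush in control neurons, 1 rose with crush in cKO neurons, 2 rose and 2 fell with deletion in uninjured neurons, and 1 rose with deletion after crush. The called shares were 17.65%, 5.88%, 23.5% and 5.88%, near the 19.7%, 5.43%, 20.7% and 6.59% of all tested genes.

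Itgb1, the beta chain shared by most laminin, collagen and fibronectin receptors, was the main beta integrin throughout. It (ENSMUSG00000025809) lies on chromosome 8 at 128685654 to 128733200, plus strand. It had 511, 502, 438 and 521 CPM in crush cKO samples and 449.7, 315, 405 and 467 CPM in crush control samples. It had 341, 314, 299.7 and 313 CPM in uninjured cKO samples, and 124, 141, 179 and 168 CPM in uninjured control samples. All uninjured control samples lay below all others, and the crush groups overlapped. Crush raised Itgb1 by 0.64 ± 0.13 on the log2 scale in cKO neurons (adjusted p = 0.00728) and by 1.42 ± 0.13 in control neurons (adjusted p = 1.32e-06). Deletion raised it by 1.05 ± 0.13 in uninjured neurons (adjusted p = 2.99e-05), and after crush the change was 0.27 ± 0.13 (adjusted p = 0.244). The interaction was −0.78 ± 0.18 (adjusted p = 0.0357). That call passed without uninjured control sample 3 or 4 or crush control sample 2, and was lost without any of the other samples, where the interaction was −0.82 to −0.7. Per kilobase of exon Itgb1 held 95.5% ± 0.903, 95.8% ± 1.81, 95.1% ± 1.30 and 90.8% ± 2.46 of the beta integrin level in crush cKO, crush control, uninjured cKO and uninjured control samples.

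Itgb6, whose product pairs with the Itgav chain and can release TGF-beta from its latent form, was lower in cKO neurons. It had 0.396, 0.175, 0.173 and 0.0269 CPM in crush cKO samples and 1.72, 13.0, 1.91 and 0.667 CPM in crush control samples. It had 0.103, 0.266, 0.131 and 1.17 CPM in uninjured cKO samples and 9.76, 8.81, 5.66 and 1.19 CPM in uninjured control samples. In each pair of groups 1 control sample lay close to the cKO samples, though the groups did not overlap. It fell by 4.45 ± 1.08 on the log2 scale with deletion after crush (adjusted p = 0.0206) and by 3.92 ± 1.04 in uninjured neurons (adjusted p = 0.0134). The fall after crush did not pass by limma-voom, or without crush control sample 2 or crush cKO sample 2, 3 or 4, with values of −4.4 to −2.85. With the sample number added to the edgeR fit as a block, neither fall passed. They were then −4.04 after crush (adjusted p = 0.0544) and −3.59 in uninjured neurons (adjusted p = 0.0573). Itgb6 was unevenly spread over libraries: 17.8% of its summed level lay in 1 aliquot of crush control sample 2 and 42.4% in 3 of the 48 libraries. Itgb8 averaged 27.6 ± 7.55, 17.2 ± 3.03, 13.6 ± 4.80 and 14.5 ± 7.57 CPM in crush cKO, crush control, uninjured cKO and uninjured control samples, and Itgb4, the hemidesmosomal beta chain, 5.63 ± 1.15, 3.82 ± 0.612, 3.24 ± 1.61 and 2.83 ± 1.33 CPM. Neither passed an edgeR test, and DESeq2 called Itgb8 with crush in cKO neurons.

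**Figure D3:**
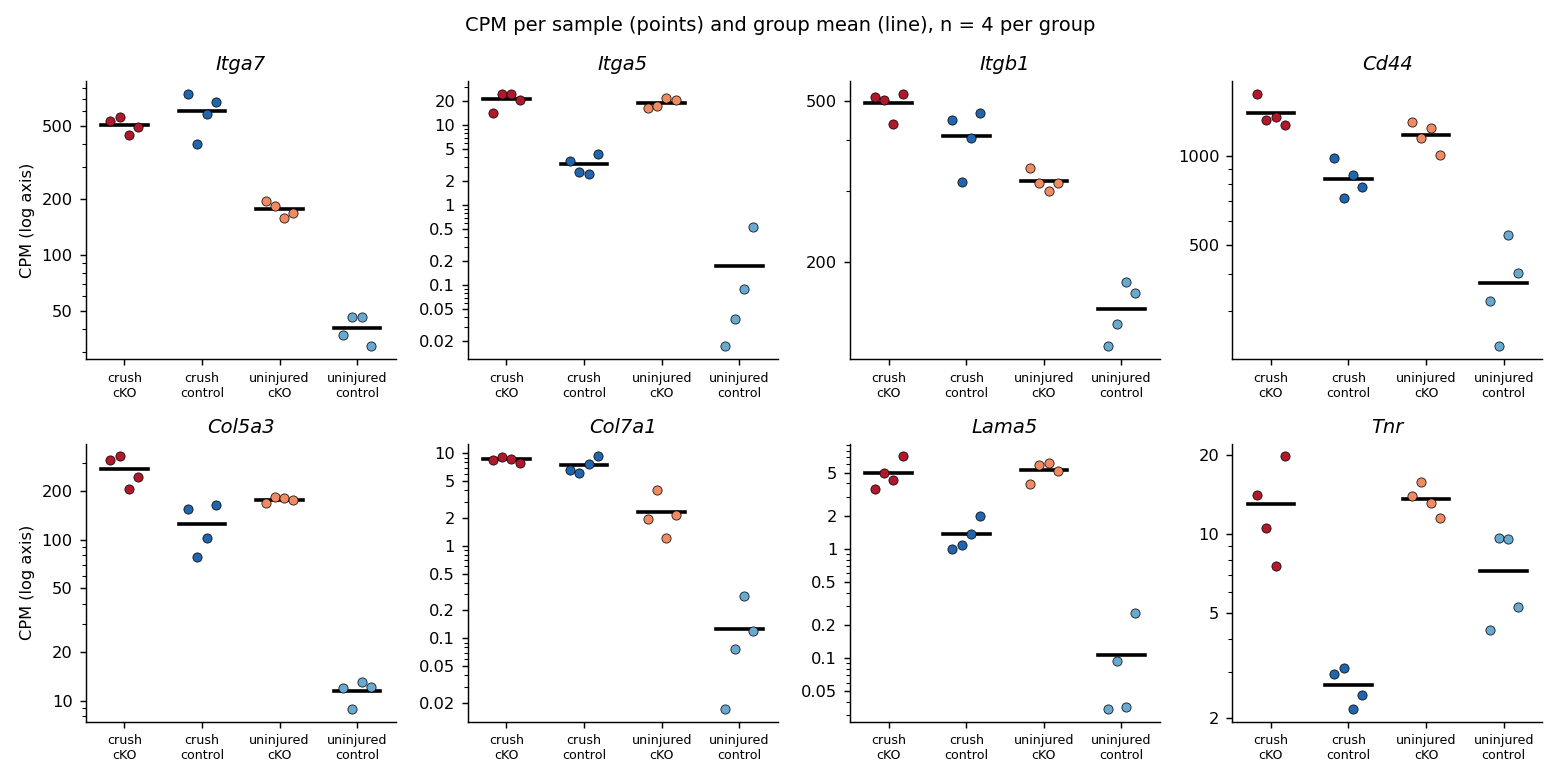
CPM of 8 genes in each sample (points, n = 4 per group) with the group mean (line), on log axes, for crush cKO, crush control, uninjured cKO and uninjured control samples. Uninjured control samples lie lowest for each gene shown but Tnr, whose crush control samples, at 2.16 to 3.09 CPM, lie lowest.

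The laminin chains of highest level, which many basement membranes hold, passed no test. Lamb1 averaged 22.9 ± 5.20, 22.2 ± 3.07, 19.9 ± 5.39 and 25.4 ± 6.76 CPM in crush cKO, crush control, uninjured cKO and uninjured control samples. Lamc1 averaged 14.7 ± 3.23, 14.0 ± 1.02, 10.9 ± 2.15 and 10.99 ± 3.24 CPM, and Lama4 6.67 ± 3.58, 6.51 ± 1.02, 7.82 ± 0.825 and 10.5 ± 5.10 CPM. The summed laminin level was 71.1 ± 7.86, 60.96 ± 1.95, 58.5 ± 4.64 and 58.3 ± 9.06 CPM. The changes lay in chains of low level. Of 10 laminin chains tested, 3 rose with crush in control neurons, none with crush in cKO neurons, 3 with deletion in uninjured neurons and 1 with deletion after crush. These are 30%, 0%, 30% and 10% of the chains, where 11.0%, 2.57%, 11.7% and 3.38% of all tested genes rose. For crush in cKO neurons, limma-voom called Lama3, as did DESeq2.

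Lama5, an alpha chain of the laminins of mature basement membranes, had the largest laminin change. It (ENSMUSG00000015647) lies on the minus strand of chromosome 2 at 180176373 to 180225859. It had 3.58, 5.00, 4.30 and 7.07 CPM in crush cKO samples and 1.01, 1.09, 1.37 and 2.02 CPM in crush control samples. It had 3.96, 5.88, 6.12 and 5.23 CPM in uninjured cKO samples and 0.0343, 0.0954, 0.0362 and 0.261 CPM in uninjured control samples, the last group resting on 22 counts. As for Itga5, both cKO groups lay above both control groups, and crushed control above uninjured control samples. With deletion the log2 change was 5.63 ± 0.56 in uninjured neurons (adjusted p = 4.31e-06) and 1.86 ± 0.46 after crush (adjusted p = 0.023). With crush it was −0.09 ± 0.44 in cKO neurons (adjusted p = 0.965) and 3.68 ± 0.53 in control neurons (adjusted p = 0.000145). The interaction was −3.77 ± 0.68 (adjusted p = 0.00683). The rise with deletion after crush did not pass without crush control sample 1, 2 or 3 or crush cKO sample 4, where it was 1.63 to 1.85. As the median of the 3 aliquots in place of their sum, the mean was 0.84 CPM in crush control samples and 3.94 CPM in uninjured cKO samples.

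Lama3 and Lamb3 encode chains of the laminin that anchors epithelia. Lama3 had 8.76, 9.46, 14.7 and 8.09 CPM in crush cKO samples and 4.84, 4.23, 5.78 and 5.81 CPM in crush control samples. It had 5.65, 2.32, 3.92 and 5.40 CPM in uninjured cKO samples and 0.309, 1.09, 1.95 and 1.79 CPM in uninjured control samples. The uninjured control samples were lowest, with no overlap with the other groups. Lama3 rose by 2.01 ± 0.44 on the log2 scale with crush in control neurons (adjusted p = 0.00427) and by 1.75 ± 0.44 with deletion in uninjured neurons (adjusted p = 0.00932). Lamb3 averaged 2.91 ± 1.12, 2.96 ± 1.71, 1.75 ± 0.346 and 0.361 ± 0.234 CPM in crush cKO, crush control, uninjured cKO and uninjured control samples. It rose by 3.02 ± 0.56 with crush in control neurons (adjusted p = 0.00131) and by 2.26 ± 0.55 with deletion in uninjured neurons (adjusted p = 0.00805).

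Col5a3, a chain of type V collagen, a fibril-forming collagen of nerve and other tissues, had the highest level per kilobase among collagens in all groups but uninjured control. It (ENSMUSG00000004098) lies on the minus strand of chromosome 9 at 20770050 to 20815067. It had 315, 329.7, 208 and 247 CPM in crush cKO samples and 155, 78.7, 103 and 165 CPM in crush control samples. It had 169, 184, 181 and 177 CPM in uninjured cKO samples and 11.98, 8.89, 13.2 and 12.3 CPM in uninjured control samples. The uninjured control samples were far below all others, and every crush cKO sample was above every crush control sample. Deletion raised Col5a3 by 3.94 ± 0.23 on the log2 scale in uninjured neurons (adjusted p = 1.46e-08) and by 1.13 ± 0.20 after crush (adjusted p = 0.00341). Crush changed it by 0.63 ± 0.20 in cKO neurons (adjusted p = 0.0926) and by 3.44 ± 0.22 in control neurons (adjusted p = 3.01e-08). The change in cKO neurons passed by DESeq2 and without crush control sample 2. The interaction was −2.81 ± 0.29 (adjusted p = 3.57e-05). Per kilobase of exon Col5a3 was 59.7% ± 7.09, 50.4% ± 9.63, 59.1% ± 5.94 and 10.9% ± 2.36 of the collagen level in crush cKO, crush control, uninjured cKO and uninjured control samples.

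Col7a1, the chain of the anchoring fibrils below epithelia, was close to absent in uninjured control neurons. It (ENSMUSG00000025650) lies on chromosome 9 at 108953586 to 108984875, plus strand. It had 8.43, 9.23, 8.79 and 7.93 CPM in crush cKO samples and 6.61, 6.14, 7.69 and 9.28 CPM in crush control samples. It had 1.94, 4.00, 1.22 and 2.18 CPM in uninjured cKO samples and 0.0172, 0.0763, 0.289 and 0.121 CPM in uninjured control samples, the last group resting on 27 counts. The crush groups overlapped, uninjured cKO samples lay between, and uninjured control samples were lowest. Crush raised it by 1.88 ± 0.46 on the log2 scale in cKO neurons (adjusted p = 0.0224) and by 5.86 ± 0.57 in control neurons (adjusted p = 2.43e-06). Deletion raised it by 4.19 ± 0.54 in uninjured neurons (adjusted p = 4.43e-05), and after crush the change was 0.21 ± 0.44 (adjusted p = 0.862). The interaction was −3.98 ± 0.68 (adjusted p = 0.00458). The rise with crush in cKO neurons did not pass without uninjured cKO sample 1, 3 or 4 or crush cKO sample 2, where it was 1.68 to 1.85.

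Of the 37 collagen chains tested, 5 rose with crush in control neurons, 1 with crush in cKO neurons, 6 with deletion in uninjured neurons and 2 with deletion after crush. The risers are 13.5%, 2.70%, 16.2% and 5.41% of the chains, where 11.0%, 2.57%, 11.7% and 3.38% of all tested genes rose. In the 2 deletion comparisons 2 and 1 fell, or 5.41% and 2.70%, where 9.02% and 3.21% of all tested genes fell. Col5a2, another type V chain, averaged 29.8 ± 4.76, 18.7 ± 11.8, 23.5 ± 7.08 and 7.89 ± 4.24 CPM in crush cKO, crush control, uninjured cKO and uninjured control samples. It rose with deletion in uninjured neurons by 1.57 ± 0.44 on the log2 scale (adjusted p = 0.0175), though not without uninjured control sample 2, where the value was 1.51. Col6a5, a type VI chain, averaged 2.99 ± 1.64, 3.08 ± 1.51, 1.41 ± 0.937 and 0.211 ± 0.329 CPM. It rose by 3.87 ± 0.98 with crush in control neurons (adjusted p = 0.0105) and by 2.74 ± 0.94 with deletion in uninjured neurons (adjusted p = 0.0489). The rise with deletion passed without uninjured control sample 4, uninjured cKO sample 1 or crush cKO sample 3, and was lost without any of the other samples (2.33 to 2.95). Col18a1, the source of endostatin in basement membranes, averaged 6.98 ± 2.38, 5.70 ± 1.07, 6.97 ± 0.788 and 2.73 ± 1.48 CPM. It rose by 1.06 ± 0.33 with crush in control neurons (adjusted p = 0.0311) and by 1.35 ± 0.33 with deletion in uninjured neurons (adjusted p = 0.00781). The rise with crush did not pass without uninjured control sample 1, 2 or 3 or crush control sample 1 or 2 (0.9 to 1.05).

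Col11a1 and Col6a2 fell with deletion. Col11a1, a fibrillar collagen known from cartilage, had 3.69, 2.18, 7.51 and 0.242 CPM in crush cKO samples and 5.91, 21.9, 15.1 and 14.7 CPM in crush control samples. It had 1.98, 2.37, 7.21 and 6.80 CPM in uninjured cKO samples and 21.0, 24.7, 12.7 and 48.99 CPM in uninjured control samples. In uninjured neurons it fell by 2.54 ± 0.71 on the log2 scale (adjusted p = 0.0181), and after crush the change was −2.08 ± 0.70 (adjusted p = 0.0937). The fall did not pass without uninjured control sample 4 or uninjured cKO sample 1 or 2 (−2.33 to −2.08), and 19.4% of the summed Col11a1 level lay in 1 aliquot of uninjured control sample 4. Col6a2, a type VI chain, averaged 0.545 ± 0.517 CPM in uninjured cKO and 2.41 ± 1.32 CPM in uninjured control samples, which overlapped. Its log2 change was −2.14 ± 0.64 (adjusted p = 0.0255), and −2.09 to −1.86 without uninjured control sample 1 or 2 or uninjured cKO sample 1, 3 or 4, where it did not pass. Among chains under 1 CPM, Col10a1 fell with deletion after crush (13 counts in crush cKO and 198 in crush control samples, adjusted p = 0.033). That call was lost without crush control sample 1, 2 or 3 or crush cKO sample 2, 3 or 4 (−3.94 to −3.43). Col13a1 rose with deletion in uninjured neurons (20 counts in uninjured cKO and 1 in uninjured control samples, adjusted p = 0.0238), and not without uninjured control sample 2, 3 or 4 or uninjured cKO sample 1 or 2 (3.13 to 3.75).

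Col4a1 and Col4a2, the main chains of type IV collagen, lie head to head on chromosome 8 and share 22 exon bases on opposite strands. The library kit does not mark strand, so reads from those bases cannot be assigned to either gene. Col4a1 had 16.2, 16.7, 24.2 and 24.5 CPM in crush cKO samples and 8.48, 8.72, 9.37 and 12.4 CPM in crush control samples, with no overlap. It averaged 11.8 ± 5.38 CPM in uninjured cKO and 7.62 ± 2.25 CPM in uninjured control samples. With deletion after crush it rose by 1.07 ± 0.29 on the log2 scale (adjusted p = 0.0351). The rise did not pass without crush control sample 1, 2 or 3 or crush cKO sample 3 or 4 (0.95 to 1.04). Col4a2 averaged 14.2 ± 4.61, 8.03 ± 1.87, 7.11 ± 2.46 and 3.78 ± 1.39 CPM in crush cKO, crush control, uninjured cKO and uninjured control samples. It rose with crush in control neurons by 1.09 ± 0.32 (adjusted p = 0.0243), and not without uninjured control sample 1, 2 or 3 or crush control sample 1 or 4 (0.92 to 1.1). Col1a2, a chain of the type I collagen of fibroblasts, averaged 31.7 ± 5.62, 21.5 ± 5.18, 18.3 ± 6.55 and 11.9 ± 8.11 CPM and passed no test.

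Markers of other cell types were present in the sorted samples and moved with some of these groups. The sum of 14 endothelial and mural cell markers was 54.1 to 245 CPM in crush cKO, 22.1 to 26.3 CPM in crush control, 40.7 to 175 CPM in uninjured cKO and 25.6 to 62.6 CPM in uninjured control samples. Of 11 tested, Flt1 and Acta2 rose with deletion after crush, Flt1, Acta2 and Pdgfrb with deletion in uninjured neurons, and Flt1, Acta2 and Abcc9 with crush in control neurons. These are 18.2%, 27.3% and 27.3% of the 11, where 3.38%, 11.7% and 11.0% of all tested genes rose. Flt1, a VEGF receptor, averaged 19.0 CPM in crush cKO, 1.02 in crush control, 8.56 in uninjured cKO and 0.0339 in uninjured control samples. Rgs5, a mural cell marker, averaged 66.1 CPM in crush cKO and 1.80 CPM in crush control samples, where the mean sums were 127 and 24.2 CPM. It was not called with deletion after crush (adjusted p = 0.128). Pecam1, Tek and Tagln had negative log2 changes there, of −2.19, −0.23 and −0.73, and were not called. Kcnj8, a pericyte marker, had no count in crush cKO or uninjured control samples. The sum of 10 fibroblast markers was 158 to 349 CPM in crush cKO, 49.8 to 135 CPM in crush control, 144 to 239 CPM in uninjured cKO and 92.1 to 264 CPM in uninjured control samples. Of the 9 tested, none was called upwards with deletion in either comparison. The list's median log2 change was 0.69 with deletion in uninjured neurons and 1.13 after crush. Cygb fell with deletion in uninjured neurons, with a log2 change of −2.92 (adjusted p = 0.000108), and had a positive interaction of 2.37 (adjusted p = 0.0376). These are 11.1% of the 9 in each, where 9.02% of all tested genes fell and 0.220% had a positive interaction. With crush in control neurons Cygb fell and Clec3b rose, or 11.1% each, where 8.68% of all tested genes fell and 11.0% rose. The sum of 10 Schwann cell markers was 1669 to 1947, 1808 to 1939, 1543 to 1824 and 1404 to 1740 CPM. With deletion after crush 1 of 10, Mag, rose, or 10%, where 3.38% of all tested genes rose. Mag was near the limit of detection, with 0.332 CPM in crush cKO samples and no count in crush control samples. The sum of 11 satellite glia markers was 1116 to 1578, 1142 to 1682, 757 to 1075 and 1646 to 2030 CPM, and S100b fell with deletion in uninjured neurons by 3.26 ± 0.45 on the log2 scale (adjusted p = 8.76e-05) and after crush by 2.32 ± 0.43 (adjusted p = 0.00415). S100b held 944 of a mean sum of 1807 CPM in uninjured control samples and 98.5 of 920 CPM in uninjured cKO samples. The difference between those 2 sums thus lies mostly in this gene. Gfap rose with deletion in uninjured neurons by 3.81 ± 1.24 (adjusted p = 0.0396), and Glul rose with crush in both genotypes. Each of these calls of S100b, Gfap and Glul is 1 of 11 genes tested, or 9.09%. With deletion in uninjured neurons 9.02% of all tested genes fell and 11.7% rose, and after crush 3.21% fell. With crush 11.0% of all tested genes rose in control neurons and 2.57% in cKO neurons. The sum of 12 macrophage markers was 17.5 to 36.1, 11.7 to 81.4, 10.6 to 27.8 and 5.30 to 10.3 CPM. The 81.4 CPM was crush control sample 2, the others of that group being 11.7 to 16.8 CPM. Of 9 tested, Cx3cr1 and Csf1r rose with crush in control neurons and with deletion in uninjured neurons, or 22.2% in each, where 11.0% and 11.7% of all tested genes rose. With deletion in uninjured neurons C1qb, Adgre1 and Tyrobp had log2 changes of −1.61, −0.92 and −0.66, none called. The list's median log2 change was 1.87 with crush in control neurons, 0.18 with deletion in uninjured neurons and −0.67 with deletion after crush. The sum of 8 lymphocyte and neutrophil markers was 13.4 to 28.3, 5.36 to 7.59, 5.91 to 9.67 and 0.289 to 2.68 CPM, with S100a9 at 0 in all groups. Of 3 tested, Trbc2 and S100a8 rose with deletion in uninjured neurons, with deletion after crush and with crush in control neurons. These are 66.7% in each, where 11.7%, 3.38% and 11.0% of all tested genes rose. Cd79a had log2 changes of −0.78, 1.08 and −1.65 there, none called. With crush in cKO neurons Trbc2 alone rose, or 33.3%, against 2.57% of all tested genes. Erythrocyte markers summed to at most 1.93 CPM in any sample, and 7 markers of large-fibre neurons to 362 to 1006 CPM. Of the 14 nociceptor and sensory neuron markers, 7 fell and 2 rose with crush in control neurons. These are 50% and 14.3%, where 8.68% of all tested genes fell and 11.0% rose. With deletion in uninjured neurons 4 fell and 3 rose, or 28.6% and 21.4%, against 9.02% and 11.7%. With crush in cKO neurons 3 fell (21.4% against 2.86%), and with deletion after crush 1 (7.14% against 3.21%). The part of other cells in the integrin, collagen and laminin results was not tested. In bulk samples, fewer cells of a type and less RNA per cell cannot be told apart.

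**Figure D4:**
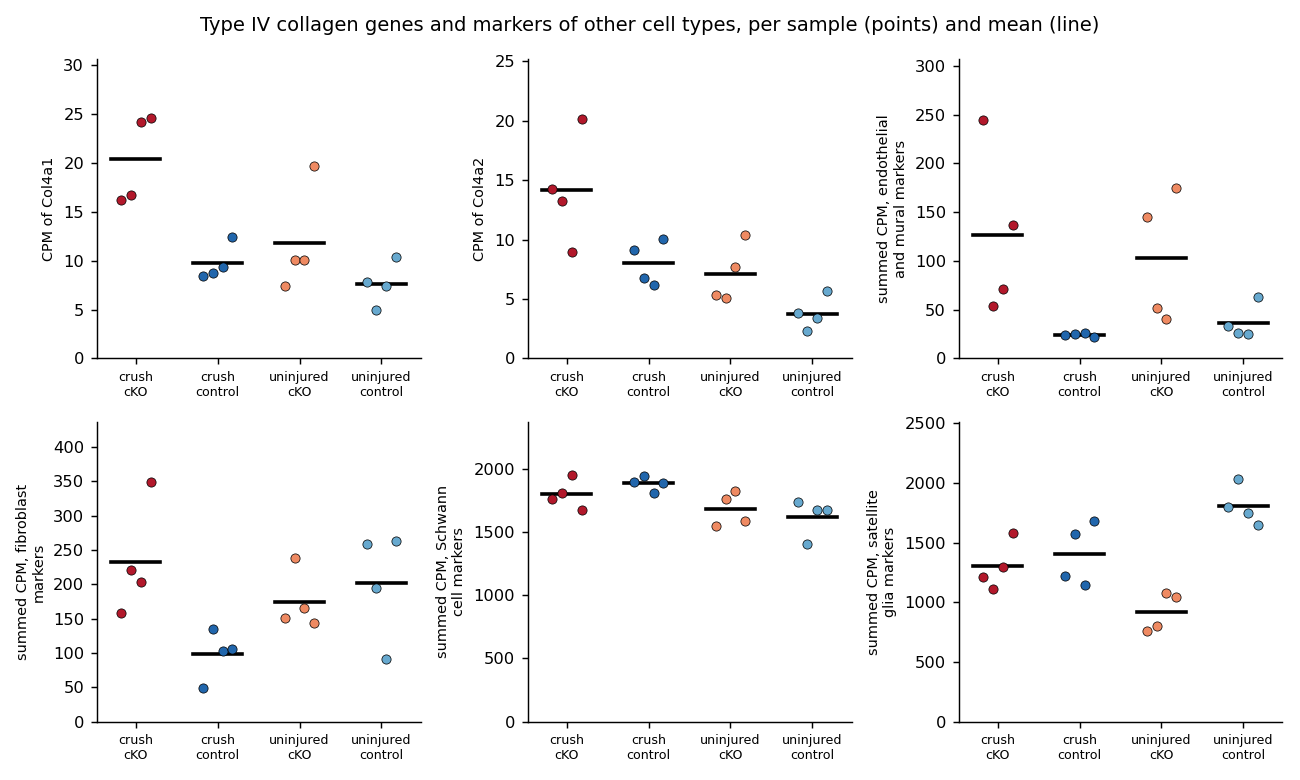
CPM of the 2 main type IV collagen genes and summed CPM of markers of endothelial and mural cells, fibroblasts, Schwann cells and satellite glia, in each sample (points, n = 4 per group) with the mean (line). Crush cKO samples exceed crush control samples in Col4a1 and in the endothelial and mural and fibroblast sums without overlap, whereas satellite glia sums are lowest in uninjured cKO samples, at 757 to 1075 CPM. Single genes hold much of the mean sums. In crush cKO samples these are Rgs5 (66.1 of 127 CPM, endothelial and mural) and Dcn (132 of 233 CPM, fibroblast). In uninjured control samples S100b held 944 of 1807 CPM of the satellite glia sum.

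Thrombospondins are secreted matrix glycoproteins that bind several integrins and CD47. None of the 4 passed the edgeR test in any comparison, none had an unadjusted edgeR p under 0.05, and DESeq2 called none. By limma-voom 1, Thbs2, was called with deletion in uninjured neurons. Thbs2 averaged 9.35 ± 3.95, 3.75 ± 2.28, 5.14 ± 1.503 and 1.69 ± 1.58 CPM in crush cKO, crush control, uninjured cKO and uninjured control samples. Its log2 change with deletion was 1.60 ± 0.80 in uninjured neurons (adjusted p = 0.182) and 1.32 ± 0.79 after crush (adjusted p = 0.391). Thbs1 averaged 3.56 ± 1.96, 1.63 ± 1.46, 2.31 ± 2.66 and 1.40 ± 1.33 CPM, with ranges as wide as the means. Thbs3 averaged 1.37 ± 0.389, 2.23 ± 0.278, 2.08 ± 1.02 and 1.74 ± 0.815 CPM, and 6.59% of its exon bases overlap Mtx1 on the other strand.

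Cd44, the receptor for hyaluronan, had the highest level per kilobase of exon of all 90 genes. It (ENSMUSG00000005087) lies on the minus strand of chromosome 2 at 102811141 to 102901665. It had 1616, 1316, 1352 and 1272 CPM in crush cKO samples and 978, 718, 858 and 785 CPM in crush control samples. It had 1301, 1143, 1236 and 1005 CPM in uninjured cKO samples and 322, 227, 539 and 403 CPM in uninjured control samples. Both cKO groups lay above both control groups, and crushed control above uninjured control samples. With deletion it rose by 1.65 ± 0.20 on the log2 scale in uninjured neurons (adjusted p = 2.36e-05) and by 0.73 ± 0.19 after crush (adjusted p = 0.0304). With crush the change was 0.25 ± 0.19 in cKO neurons (adjusted p = 0.601) and 1.16 ± 0.19 in control neurons (adjusted p = 0.000514). The interaction, −0.92 ± 0.27, missed the threshold (adjusted p = 0.114), and passed by DESeq2 and without uninjured control sample 3. The rise with deletion after crush did not pass without crush control sample 2, 3 or 4 or crush cKO sample 1, 3 or 4 (0.65 to 0.76).

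Tnr, which encodes tenascin-R, a matrix protein known from perineuronal nets of the central nervous system, fell with crush in control neurons. It (ENSMUSG00000015829) lies on chromosome 1 at 159523769 to 159931729, plus strand, and 3.44% of its exon bases overlap Gm38039 on the other strand. It had 14.1, 10.6, 7.55 and 19.8 CPM in crush cKO samples and 2.95, 3.09, 2.16 and 2.45 CPM in crush control samples. It had 13.9, 15.8, 13.2 and 11.5 CPM in uninjured cKO samples and 4.31, 9.67, 9.61 and 5.30 CPM in uninjured control samples. The crush control samples were the lowest, below every sample of each other group. With crush the log2 change was −0.06 ± 0.30 in cKO neurons (adjusted p = 0.962) and −1.44 ± 0.31 in control neurons (adjusted p = 0.00362). With deletion it was 2.29 ± 0.31 after crush (adjusted p = 0.000459) and 0.91 ± 0.30 in uninjured neurons (adjusted p = 0.0415). The interaction, 1.37 ± 0.43, missed the threshold (adjusted p = 0.133) but passed by DESeq2. The rise in uninjured neurons did not pass without uninjured control sample 1 or 4, any uninjured cKO sample, crush control sample 4 or crush cKO sample 1 (0.73 to 0.98).

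Tnc, encoding tenascin-C, a matrix protein of wounds and development, had 4.35, 5.95, 5.70 and 3.20 CPM in crush cKO samples and 1.29, 6.52, 1.41 and 3.67 CPM in crush control samples. It had 0.845, 0.195, 0.506 and 3.63 CPM in uninjured cKO samples and 0.0515, 0, 0.579 and 0.602 CPM in uninjured control samples. With crush in control neurons it rose by 3.38 ± 1.04 on the log2 scale (adjusted p = 0.0311). The rise did not pass without uninjured control sample 1 or 2 or crush control sample 2 or 4 (2.79 to 3.33). Fn1, the fibronectin that the receptor with the Itga5 chain binds, averaged 0.458 ± 0.67, 0.0554 ± 0.0535, 0.231 ± 0.0712 and 0.0733 ± 0.088 CPM in crush cKO, crush control, uninjured cKO and uninjured control samples and passed no test. It was at a low level in these neurons in all groups.

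Low genes depended on few libraries. With equal spread, each of the 48 libraries would hold 2.08% of a gene's summed CPM. For the 4 genes with a mean of at least 100 CPM, the library with most held 3.88 to 5.92%. For the 52 genes of 1 to 100 CPM it held 3.85 to 22.8% (median 8.24%), and for the 34 genes under 1 CPM 8.5 to 100% (median 26.1%). The share runs over libraries of all 4 groups, so a difference in level between groups raises it too.

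**Figure D5:**
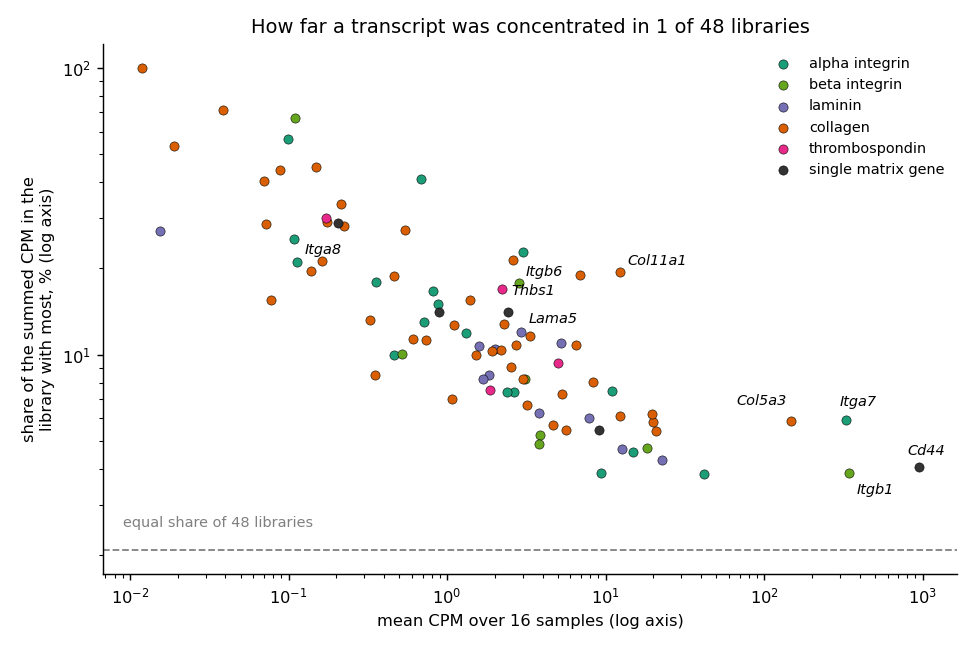
Share of each gene's summed CPM held by the library with most (vertical axis, percent, log scale) against its mean CPM over 16 samples (horizontal axis, log scale), 1 point per gene, coloured by class; the dashed line is the equal share of 2.08%. All points lie above the line: Itgb1 is at 3.88%, Cd44 at 4.04%, Col5a3 at 5.86% and Itga7 at 5.92%, against 17.8% for Itgb6 and 19.4% for Col11a1.

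Partners of the integrins inside the cell changed in both directions. Of 40 tested genes of integrin adaptors and adhesion signalling, 10 rose and 4 fell with crush in control neurons, 6 rose and 2 fell with crush in cKO neurons, 9 rose and 7 fell with deletion in uninjured neurons, and 3 rose and 4 fell with deletion after crush. These are 25% and 10%, 15% and 5%, 22.5% and 17.5%, and 7.5% and 10% of the list, beside the shares of all tested genes of 11.0% up and 8.68% down, 2.57% and 2.86%, 11.7% and 9.02%, and 3.38% and 3.21%. The list's median log2 changes were 0.19, 0.13, 0.03 and 0.00 in these comparisons. Cd63, a tetraspanin that binds integrins and TIMP-1, averaged 593 CPM in crush cKO, 304 in crush control, 365 in uninjured cKO and 71.3 in uninjured control samples. It rose by 2.36 ± 0.16 on the log2 scale with deletion in uninjured neurons (adjusted p = 7.71e-08) and by 2.09 ± 0.16 with crush in control neurons (adjusted p = 1.46e-07). With crush in cKO neurons and with deletion after crush Cd63 also rose, by 0.70 ± 0.15 (adjusted p = 0.0114) and 0.97 ± 0.15 (adjusted p = 0.00114). The tetraspanins Cd151 and Cd9 fell with deletion in uninjured neurons, by 0.93 ± 0.11 (adjusted p = 2.03e-05) and 1.72 ± 0.21 (adjusted p = 2.48e-05). Both fell with deletion after crush as well, and Cd9 with crush in control neurons. Tln1, the talin that activates integrins, averaged 169, 171, 146 and 76.0 CPM in crush cKO, crush control, uninjured cKO and uninjured control samples. It rose by 1.17 ± 0.12 with crush in control neurons (adjusted p = 5.24e-06), with Flna by 1.98 ± 0.19 (adjusted p = 1.72e-06) and Zyx by 1.66 ± 0.14 (adjusted p = 6.03e-07), a filamin and a zyxin of actin-linked adhesions. Tln1, Flna and Zyx rose with deletion in uninjured neurons too, and Flna and Zyx with crush in cKO neurons. Tln2, the neuronal talin, fell with crush by 1.22 ± 0.18 in cKO neurons (adjusted p = 0.000882) and by 1.15 ± 0.18 in control neurons (adjusted p = 0.00031). With deletion in uninjured neurons Tln2 fell by 0.53 ± 0.18 (adjusted p = 0.0467), and its interaction was −0.07 ± 0.25 (adjusted p = 0.953). Cd63, Tln1, Flna and Zyx were the 4 of the list with an interaction, all negative, or 10% of the list against 1.54% of all tested genes.

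Other matrix genes and receptors rose more often than they fell. Of 43 tested, 8 rose and 1 fell with crush in control neurons, 3 rose and 1 fell with crush in cKO neurons, 10 rose and 1 fell with deletion in uninjured neurons, and 7 rose with deletion after crush. The risers are 18.6%, 6.98%, 23.3% and 16.3% of the list, against 11.0%, 2.57%, 11.7% and 3.38% of all tested genes. The list's median log2 changes were 0.40, 0.29, 0.36 and 0.51, against −0.03 to 0.02 over all tested genes. Sdc1, a syndecan that binds matrix through heparan sulphate, averaged 238 CPM in crush cKO, 192 in crush control, 136 in uninjured cKO and 8.53 in uninjured control samples. It rose by 4.49 ± 0.39 on the log2 scale with crush in control neurons (adjusted p = 6.94e-07) and by 4.00 ± 0.38 with deletion in uninjured neurons (adjusted p = 2.43e-06). Lgals3, a galectin that binds glycans of matrix and integrins, averaged 398, 170, 487 and 26.9 CPM in the same order of groups. It rose by 4.18 ± 0.29 with deletion in uninjured neurons (adjusted p = 9.45e-08), by 2.66 ± 0.27 with crush in control neurons (adjusted p = 4.21e-06) and by 1.23 ± 0.26 with deletion after crush (adjusted p = 0.00875). Sdc4, a syndecan of focal adhesions, averaged 387, 165, 193 and 195 CPM. It rose with crush in cKO neurons by 1.01 ± 0.19 (adjusted p = 0.00577), with deletion after crush by 1.24 ± 0.19 (adjusted p = 0.00114), and had a positive interaction of 1.25 ± 0.27 (adjusted p = 0.0255). Sdc1 and Lgals3 had negative interactions, of −3.68 ± 0.49 (adjusted p = 0.000436) and −2.95 ± 0.37 (adjusted p = 0.000214).

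Enzymes that fold and crosslink collagen rose in 9 of 27 cases with crush in control neurons and in 6 of 27 with deletion in uninjured neurons, or 33.3% and 22.2%, against 11.0% and 11.7% of all tested genes, and none fell in these comparisons. With deletion after crush none of the 27 passed, and with crush in cKO neurons Colgalt2 alone was called, falling by 0.76 ± 0.21 (adjusted p = 0.0419). The list's median log2 changes were 0.34 with crush in control neurons, 0.36 with crush in cKO neurons, 0.21 with deletion in uninjured neurons and 0.19 with deletion after crush. Loxl2, a lysyl oxidase that crosslinks type IV collagen, averaged 17.7 CPM in crush cKO, 9.54 in crush control, 11.2 in uninjured cKO and 0.339 in uninjured control samples. It rose by 4.81 ± 0.55 on the log2 scale with crush in control neurons (adjusted p = 1.54e-05) and by 5.04 ± 0.56 with deletion in uninjured neurons (adjusted p = 1.15e-05). Bmp1, the protease that trims fibrillar procollagens, averaged 42.9, 32.1, 24.8 and 3.33 CPM in these groups. It rose by 3.27 ± 0.38 with crush in control neurons (adjusted p = 1.54e-05) and by 2.90 ± 0.37 with deletion in uninjured neurons (adjusted p = 4.45e-05).

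Of 31 tested matrix proteases and their inhibitors, 11 rose and 2 fell with crush in control neurons, 6 rose and 1 fell with crush in cKO neurons, 7 rose and 2 fell with deletion in uninjured neurons, and 2 rose and 1 fell with deletion after crush. The risers are 35.5%, 19.4%, 22.6% and 6.45% of the list, against 11.0%, 2.57%, 11.7% and 3.38% of all tested genes. The median log2 changes were 0.33, 0.53, 0.21 and 0.14. Plaur, the urokinase receptor, averaged 124 CPM in crush cKO, 232 in crush control, 62.2 in uninjured cKO and 14.4 in uninjured control samples. It rose by 4.01 ± 0.31 on the log2 scale with crush in control neurons (adjusted p = 2.28e-07) and by 2.11 ± 0.29 with deletion in uninjured neurons (adjusted p = 8.97e-05), and by 1.00 ± 0.28 with crush in cKO neurons (adjusted p = 0.0494), with an interaction of −3.01 ± 0.40 (adjusted p = 0.000451). Mmp16, a membrane-bound matrix metalloprotease, averaged 119.7, 193, 31.7 and 26.97 CPM in these groups. It rose with crush in cKO neurons by 1.92 ± 0.25 (adjusted p = 0.000377) and in control neurons by 2.84 ± 0.26 (adjusted p = 1.48e-06). Timp1, an inhibitor of matrix metalloproteases, rose with crush by 2.94 ± 0.58 in cKO neurons (adjusted p = 0.00642) and by 4.13 ± 0.61 in control neurons (adjusted p = 0.000186), and its interaction of −1.18 ± 0.77 did not pass (adjusted p = 0.557).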

How the data were processed

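Messenger RNA was measured in 48 libraries of about 100 sorted neurons, made with Clontech's SMARTer Ultra Low kit and read as single reads of 50 bases, per the labels' protocols. The kit does not mark strand and no molecular identifiers are named. The authors deposited whole-number read counts per Ensembl gene, made with FastQC, STAR and HTSeq on mm10 per the submitters' processing notes, their versions being not given in the sources here. The summary lines of HTSeq were not counted as genes. Alignments to several places made up 37.5 to 46.1% of all lines, reads outside genes 5.92 to 19.4% and ambiguous reads 1.92 to 2.58%. Symbols and coordinates came from GENCODE M21, which matched 47224 of 47643 identifiers. A deposited table of the authors' own DESeq2 comparisons was not used.

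Counts of the 3 aliquots were summed per sample (n = 4 per group). Labels call the 4 biological replicates without naming animals, so p-values measure the spread between these samples. The test was edgeR's (version 4.0.16, R 4.3.3; TMM, filterByExpr, 1 mean per group, two-sided quasi-likelihood test, Benjamini-Hochberg adjustment over 19048 genes, threshold 0.05). The SE of a log2 change is its size over the square root of F. The script was tested on simulated data. Alternatives were RLE scaling, DESeq2 1.42.0, limma-voom (limma 3.58.1), no filter, a replicate block, a threshold of 0.01 and leaving out each of the 16 samples, and for levels the median of the aliquots. Members are given with values where they were called with a mean of at least 1 CPM (at most 15 per comparison) or were among the 3 of highest level in their class, and at most 3 called genes under 1 CPM. From each other list at most 4 called genes per comparison are named, with some uncalled markers that held much of a sum or moved the other way. Col28a1 is shown in a plot for its level per kilobase, a choice made after values were seen. The members and lists were chosen with earlier results of these data known. A search of protein sequences was not run.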

Additional observations from a re-analysis of the deposited data

Results flagged for a closer look

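Dixon's criterion at the 95% level is met by chance in about 1 of 20 groups of normally distributed values. By this criterion, 1 sample stood apart from the other 3 in 9 of 136 groups of 4 samples. In uninjured control samples these were Itga5 in sample 4 (0.542 CPM, the others 0.0172 to 0.0904), Col6a5 in sample 4 (0.703 CPM, the others 0 to 0.0858) and Col13a1 in sample 1 (0.0172 CPM, the others 0). In uninjured cKO samples they were Itgb6 in sample 4 (1.17 CPM, the others 0.103 to 0.266) and Thbs3 in sample 4 (3.60 CPM, the others 1.39 to 1.75). In crush control samples they were Lamb3 in sample 1 (5.50 CPM, the others 1.83 to 2.34), Itgb6 in sample 2 (13.0 CPM, the others 0.667 to 1.91) and Itga8 in sample 1 (0.0311 CPM, the others 0). In crush cKO samples Col18a1 stood apart in sample 4 (10.5 CPM, the others 5.57 to 5.91). For Itga8 and Col13a1 the other 3 samples had no count, where any count meets the criterion, so nothing follows from these flags.

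The crush effect differed between genotypes for 7 genes by the interaction test of edgeR (adjusted p under 0.05). The log2 difference, cKO minus control, was −4.13 for Itga5, −2.81 for Col5a3, −3.77 for Lama5, −2.37 for Itga7, −3.98 for Col7a1, −0.78 for Itgb1 and 10.86 for Itga8, the last a fitted value on a gene with no count in 1 group.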

How the results depend on the processing

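With crush in cKO neurons the number of the 80 genes called was 3 in the edgeR result, 9 by DESeq2, 5 by limma-voom and 7 with a replicate block, which called 5.64% of all tested genes. At an adjusted p under 0.01 it was 11 with deletion in uninjured neurons, against 19 at 0.05, and 3 with deletion after crush, against 8, where 11.1% and 2.51% of all tested genes passed. Leaving out 1 sample at a time gave 12 to 17 called with crush in control neurons, 2 to 4 with crush in cKO neurons, 15 to 22 with deletion in uninjured neurons, 3 to 8 with deletion after crush and 5 to 8 for the interaction. The shares of all tested genes in those fits are not given, so these ranges are not set against the whole table. No called change reversed its sign. Of changes that were not called, Lama5 with crush in cKO neurons was 0.01 without uninjured cKO sample 3 and 0.04 without crush cKO sample 1, against −0.09 with all samples and −0.29 at the lowest. Tnr with crush in cKO neurons was 0.02 without uninjured cKO sample 2, 0.02 without crush cKO sample 2 and 0.14 without crush cKO sample 3, against −0.06 with all samples and −0.32 at the lowest. Tsc2 kept its fall in all alternatives.

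Same-numbered samples of a genotype correlated in their deviations from the group means by 0.063 to 0.152 in cKO and 0.041 to 0.109 in control samples. Differently numbered samples correlated by −0.082 to 0.018 and −0.071 to 0.032, below every same-numbered pair. In each genotype, 4 of 4 crush and 4 of 4 uninjured samples correlated best with their own number. Same-numbered samples of different genotypes correlated by 0.004 to 0.064, and differently numbered ones by −0.058 to 0.041. The data thus hint at something shared by number, which is not confined to samples of the same genotype. What the number stands for was not tested, the labels name no animals, and the main edgeR test uses no pairing. With the replicate block, 18 genes were called with crush in control neurons, 19 with deletion in uninjured neurons, 9 with deletion after crush and 6 for the interaction, and calls lost were Itgb1 (interaction), Itgb6 (−4.04, adjusted p = 0.0544, with deletion after crush and −3.59, adjusted p = 0.0573, in uninjured neurons) and Tnr (deletion in uninjured neurons). For these comparisons the shares of all tested genes with the block are not given. Limma-voom did not call Itgb6 with deletion after crush, Col13a1 with deletion in uninjured neurons or the Itga8 interaction, and without the filter Col13a1, Col6a5 and Tnr were not called with deletion in uninjured neurons. Counts without molecular identifiers include amplification copies, which limits genes under 1 CPM most. The cause of these differences was not tested.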
